A study of Mus musculus with 12 samples.

Results

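The genes described here are the cyclins, the cyclin-dependent kinases and the phosphatase that carry a cell out of G1 and into S phase. They are the D-type cyclins Ccnd1, Ccnd2 and Ccnd3, the E-type cyclins Ccne1 and Ccne2, the kinases Cdk4, Cdk6 and Cdk2, and Cdc25a. The members were listed by symbol and matched to the Ensembl gene identifiers of the deposited count table, where all 9 were found among 43629 genes and all 9 passed the filter on low counts that left 13944. Thymic pre-T cells of C57BL/6 mice were sorted by flow cytometry, and their total RNA was sequenced in 3 groups of 4 libraries, which the study calls biological replicates. The first group, DCKO, held DN3-like cells of the genotype Zfp36l1fl/fl, Zfp36l2fl/fl, CD2cre, in which a Cre recombinase under CD2 control deletes both floxed genes in the lymphoid lineage. The other groups were DN3b and DN3a cells of control mice that carried the same floxed alleles, Zfp36l1fl/fl, Zfp36l2fl/fl, without a listed Cre. The age of the mice is not given in the labels used here, and neither is whether a library pooled several mice. DN3a and DN3b are thymocytes with neither CD4 nor CD8, and beta selection lies between them: a DN3a cell that makes a working T cell receptor beta chain passes it and starts to divide as DN3b.

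D-type cyclins are made in response to outside signals, in thymocytes among them Notch, interleukin 7 and the pre-T cell receptor, and they activate Cdk4 and Cdk6. These kinases phosphorylate the retinoblastoma family, which releases E2F transcription factors, and E2F in turn drives Ccne1, Ccne2 and Cdc25a. Cyclin E binds Cdk2 to start DNA replication, and Cdc25a removes the inhibitory phosphates from Cdk2. The products of Zfp36l1 and Zfp36l2 are zinc finger proteins that recognise AU-rich elements in the 3′ ends of messenger RNA and promote its decay.

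Libraries held 30401159 to 41258922 counts in DCKO, 32359182 to 41664096 in DN3b and 28479157 to 45975678 in DN3a. The targeted genes followed the labels: Zfp36l1 stood at 1.64 to 3.8 CPM in DCKO, 9.63 to 23.3 in DN3b and 27.1 to 43.9 in DN3a, and Zfp36l2 at 45.4 to 87.9, 287 to 467 and 341 to 685 CPM in the same groups. Some libraries stood apart. DN3b library 1 held Notch3 at 360 CPM, within the DN3a range of 304 to 839, against 104, 84.5 and 54.5 in DN3b libraries 2 to 4. It also had the lowest Ccne1, Ccne2, Cdk2 and Cdc25a of the DN3b libraries. DN3a library 1 likewise had the most Notch3 of its group, 839 CPM. In both control groups Ccne1 and Ccne2 increased in the order of the library numbers 1 to 4. Ccne1 went from 34.6 to 67.2 CPM in DN3b and from 3.81 to 11.7 CPM in DN3a. Ccne2 went from 117 to 222 CPM in DN3b and from 23.6 to 67.4 CPM in DN3a. What this order reflects was not tested. The feature ENSMUSG00000045999 took 9.02% of DCKO library 1, and in DCKO library 2 Gm42418 and Lars2 took 1.14% and 0.569%, so values without both libraries are given where they change a result. ENSMUSG00000045999 was also the largest feature of DN3a library 4 (2.605%), DN3b library 1 (2.206%) and DCKO library 4 (1.476%). All 11 pre-T cell markers were detected above 1 CPM. Their sum was higher in DCKO (5850 to 10900 CPM) than in DN3b (3240 to 4850 CPM) without overlap, with 5380 to 7330 CPM in DN3a. Rag1 was the largest part of this sum, at means of 4315 CPM in DCKO, 997 in DN3b and 1812 in DN3a. Its DCKO libraries ran from 2091 to 6799 CPM. Thy1, Cd8a, Cd8b1 and Cd4 had lower means in DCKO than in DN3b, and the rest of the list had higher means. The dendritic cell list was highest in DCKO, at 11.5 to 18.4 CPM, against 7.03 to 8.81 in DN3b and 6.34 to 10.1 in DN3a. Flt3 made up nearly all of it, at a mean of 14.9 CPM in DCKO, 7.60 in DN3b and 7.68 in DN3a. Of the other genes listed, Itgax had its highest mean in DN3a (0.870 CPM, against 0.472 in DCKO), and Siglech had 0 counts in DCKO. The other lists were highest in DN3a, except the erythroid list, which overlapped in all groups (2.98 to 14 CPM in DCKO, 2.18 to 22.8 in DN3b and 6.44 to 20.6 in DN3a). The B cell list summed to 18.6 to 24.4 CPM in DCKO, 9.73 to 32.1 in DN3b and 42.5 to 58.3 in DN3a, with Cd79b alone of 5 above 1 CPM. The stroma list summed to 8.61 to 16.7, 12.3 to 45.7 and 74.9 to 130 CPM, with Epcam alone of 4 above 1 CPM and Pdgfra at 0, and the gamma-delta T cell list, at levels like those of the cyclins and kinases, to 124 to 287, 140 to 293 and 466 to 569 CPM. The gamma-delta sum was mostly Tcrg-C1 (means 169, 185 and 503 CPM), with 2 of the 3 listed genes found. The NK cell list summed to 17.9 to 29.5, 6.24 to 27.6 and 54.5 to 57.8 CPM, with Nkg7 alone of 3 above 1 CPM. The myeloid list summed to 7.96 to 19.3, 1.37 to 9.79 and 19.5 to 31.2 CPM. Lyz2 made up most of it (means 9.26, 4.25 and 23.8 CPM), while Itgam, Csf1r, Cd14, Adgre1 and Mpo had their highest means in DCKO. The nuclear RNA Malat1 took 0.0987% to 0.205% of the counts in DCKO, 0.0991% to 0.241% in DN3b and 0.583% to 0.841% in DN3a. The part of these differences in the results below was not tested. In bulk RNA, a smaller share of cells that express a gene and less of its RNA per cell cannot be told apart.

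Against DN3a cells, DCKO cells had more RNA of both E-type cyclins, of Cdk2, of Cdc25a, of Cdk4 and of Ccnd3, and less of Ccnd2 and Cdk6. Of the 9 genes, 6 rose and 2 fell in DCKO at an adjusted p under 0.05. Over all genes tested, 60.2% passed in either direction, 30.7% higher and 29.5% lower. The libraries of DCKO and DN3a did not overlap for 7 of the 9, against 54.9% of all genes. The median log2 change of the 9 genes was 0.94, and that of all genes -0.04. The question of this comparison is how far cells with both floxed genes targeted differ from the stage that precedes beta selection. The DCKO libraries are titled DN3, without the a or b of the control titles. Genotype and sorted stage therefore cannot be told apart in either comparison of DCKO with a control group.

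Against DN3b cells, the stage after beta selection, 2 of the 9 genes rose in DCKO and 0 fell, where 18.9% of all genes tested passed (10.3% higher and 8.58% lower). The genes were Ccne2 and Cdc25a. The share of all genes rests on the libraries: its 2635 genes were 1730, 1654, 1670 and 1601 without DCKO library 1, DCKO library 2, DN3b library 2 or DN3b library 3, and 950 without DCKO libraries 1 and 2 together. At an unadjusted p under 0.05, 4 of the 9 were higher and 0 lower; DESeq2 called 4 higher and 0 lower, and limma-voom 3 higher and 0 lower. DCKO and DN3b libraries did not overlap for 4 of the 9, the other two being Ccne1 and Cdk2, against 20.9% of all genes. The median log2 change of the 9 was 0.14. The authors' deposited table for this pair calls 3 of the 9 higher and 0 lower, the third being Ccne1.

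Against DN3a cells, DN3b cells had more RNA of Ccne1, Ccne2, Cdk2, Cdc25a, Cdk4 and Ccnd3 and less of Ccnd2 and Cdk6, so that 6 of the 9 genes rose, 2 fell and Ccnd1 was not called. This is the step across beta selection in control mice. Over all genes tested, 52.6% passed between DN3b and DN3a, 27.4% higher and 25.2% lower. This fit does not use the pairing of DN3b with DN3a libraries by replicate number. With that number as a block, on the 8 libraries of the pair, 9233 genes passed, against 7177 without it. The calls of the 9 genes were the same with the block. The libraries of these groups did not overlap for 7 of the 9 genes, against 47.9% of all genes, and the median log2 change of the 9 was 0.91. These comparisons share libraries in pairs (DCKO against DN3a and DN3b against DN3a use the same DN3a libraries), so their values stand side by side below and are not counted as separate evidence.

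**Figure D1:**
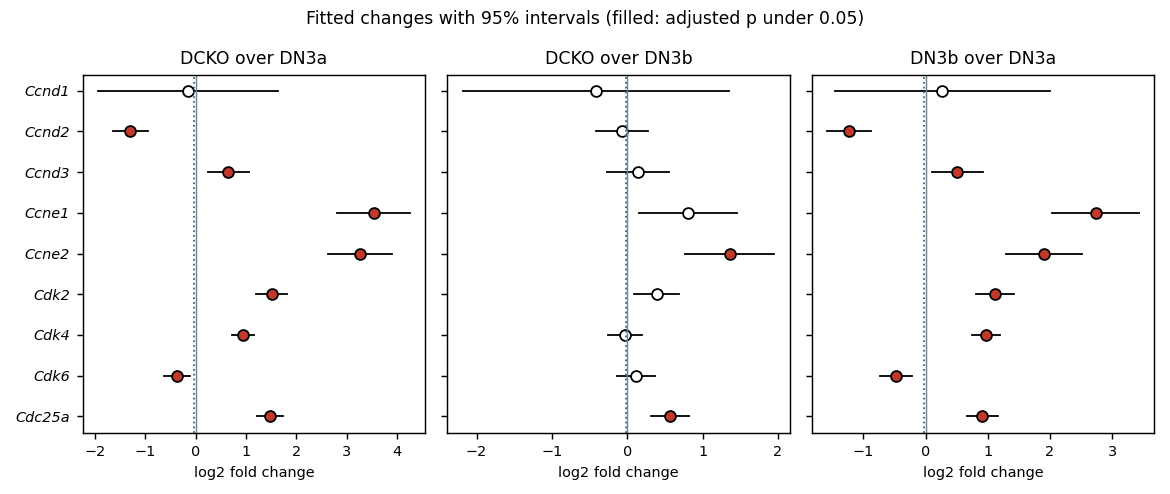
Fitted log2 fold changes of the 9 genes (horizontal axis) with 95% intervals, for DCKO over DN3a, DCKO over DN3b and DN3b over DN3a; filled points passed an adjusted p of 0.05, the solid line is 0 and the dotted line the median of all genes tested. Ccne1 (3.53) and Ccne2 (3.26) lie farthest to the right in DCKO over DN3a, Ccnd2 farthest to the left (-1.30), and only Ccne2 (1.36) and Cdc25a (0.56) are filled in DCKO over DN3b.

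Ccnd2 and Ccnd3 moved in opposite directions, and Ccnd1 was scarcely detected. Ccnd2, cyclin D2, a D cyclin of lymphocytes, lies at chr6:127125162-127152193 on the minus strand of GRCm38 (ENSMUSG00000000184). It measured 94.1, 143.8, 130.4 and 83.1 CPM in DCKO libraries 1 to 4, 134.1, 110.3, 111.7 and 116.9 CPM in DN3b, and 279, 243, 269 and 318 CPM in DN3a. Every DN3a library was above every library of the other groups, and the DN3b range lay inside the DCKO range. Ccnd2 averaged 113 ± 28.9 CPM in DCKO, 118 ± 10.9 CPM in DN3b and 277 ± 31.3 CPM in DN3a (SD, n = 4 each). It fell 2.46-fold in DCKO relative to DN3a (log2 -1.30 ± 0.161 SE, adjusted p = 2.92e-05) and 2.35-fold in DN3b relative to DN3a (-1.23 ± 0.161, adjusted p = 8.33e-05). Between DCKO and DN3b the log2 difference was -0.07, with a 95% interval of -0.41 to 0.28 (adjusted p = 0.803).

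Ccnd3, cyclin D3, the D cyclin that pre-T cell expansion depends on in mice, lies at chr17:47505051-47599691 on the plus strand (ENSMUSG00000034165). Its level was 189, 185, 239 and 311 CPM in DCKO, 228, 182, 204 and 225 CPM in DN3b, and 196, 116, 156 and 121 CPM in DN3a. DN3a library 1 reached into the range of both other groups, and DCKO library 4 was the highest of all 12. The means were 231 ± 58.9 CPM in DCKO, 210 ± 21.5 CPM in DN3b and 147 ± 37.2 CPM in DN3a (SD, n = 4 each). Ccnd3 rose 1.57-fold in DCKO relative to DN3a (log2 0.65 ± 0.191, adjusted p = 0.0101). With upper quartile scaling this call was lost (0.43, adjusted p = 0.0639; range over 21 alternatives 0.00244 to 0.0639). In DN3b it rose 1.42-fold over DN3a (0.51 ± 0.190, adjusted p = 0.0380), a call that 9 of 21 alternatives lost. Those were upper quartile scaling, a stricter filter on low counts, and leaving out DCKO library 3, DN3b library 1, 3 or 4, or DN3a library 2, 3 or 4, with adjusted p between 0.00551 and 0.119 over all 21. The value of 0.00551 came from the fit with replicate number as a block. DCKO and DN3b differed by 0.14 in log2 (95% interval -0.27 to 0.55, adjusted p = 0.643).

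Ccnd1, cyclin D1, at chr7:144929931-144939925 on the minus strand (ENSMUSG00000070348), is the main D cyclin of many epithelial and mesenchymal tissues. Here it was close to the limit of detection, with 67 counts over the 4 DCKO libraries, 114 over DN3b and 97 over DN3a. The libraries gave 0.726, 0.779, 0.183 and 0.447 CPM in DCKO and 0.207, 0.821, 0.521 and 0.780 CPM in DN3a. In DN3b they gave 1.43, 1.15 and 0.186 CPM and, in library 4, 0 counts, which allows up to 0.0976 CPM at 3 counts. All 3 groups overlapped. The log2 difference was -0.15 (95% interval -1.93 to 1.63) between DCKO and DN3a, -0.42 (-2.18 to 1.35) between DCKO and DN3b, and 0.27 (-1.46 to 1.99) between DN3b and DN3a. The adjusted p was 0.886, 0.759 and 0.797 for these 3 comparisons, and the direction changed with the setting in each of them.

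**Figure D2:**
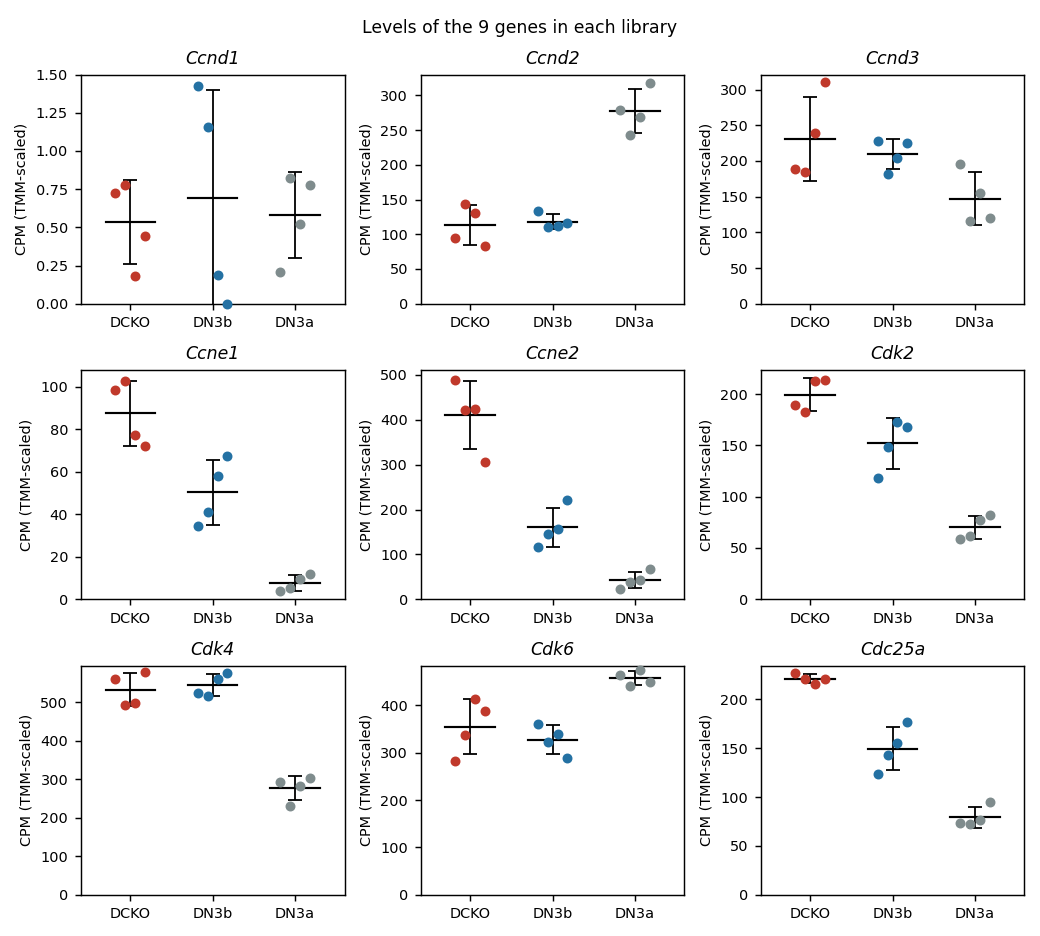
Level of each of the 9 genes in CPM on TMM-scaled library sizes (vertical axis, from 0), one point per library, for DCKO, DN3b and DN3a from left to right; the horizontal bar is the mean of 4 libraries and the error bar 1 SD. DN3a stands apart at the top for Ccnd2 (243 to 318 CPM) and Cdk6 (440.4 to 474 CPM) and at the bottom for Ccne1, Ccne2, Cdk2, Cdk4 and Cdc25a, and for Ccne2 the DCKO libraries (307 to 488 CPM) lie above the DN3b libraries (117 to 222 CPM).

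The kinase partners of cyclin D also went different ways. Cdk4, at chr10:127063534-127067920 on the plus strand (ENSMUSG00000006728), measured 562, 495, 498 and 579 CPM in DCKO, 524, 518, 561 and 576 CPM in DN3b, and 294, 231, 283 and 303 CPM in DN3a. All DN3a libraries lay below all others, and DCKO and DN3b overlapped. It averaged 533 ± 43.1 CPM in DCKO, 545 ± 28.5 CPM in DN3b and 278 ± 32.0 CPM in DN3a (SD, n = 4 each). Cdk4 rose 1.92-fold in DCKO (log2 0.94 ± 0.104, adjusted p = 1.34e-05) and 1.96-fold in DN3b (0.97 ± 0.104, adjusted p = 3.61e-05), both relative to DN3a. DCKO and DN3b differed by -0.03 in log2, with a 95% interval of -0.25 to 0.19 (adjusted p = 0.869), the narrowest of the 9 genes in this comparison.

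Cdk6, the second cyclin D kinase and the one that early thymocyte expansion is known to need in mice, lies at chr5:3341485-3531008 on the plus strand (ENSMUSG00000040274). Its libraries gave 282, 336, 413 and 388 CPM in DCKO, 361, 323, 339.9 and 288 CPM in DN3b, and 464, 440.4, 474 and 450.1 CPM in DN3a. DN3a was highest and its libraries were close together, and DCKO and DN3b overlapped. The mean was 355 ± 58.1 CPM in DCKO, 328 ± 30.8 CPM in DN3b and 457 ± 15.1 CPM in DN3a (SD, n = 4 each). Cdk6 fell 1.29-fold in DCKO relative to DN3a (log2 -0.37 ± 0.119, adjusted p = 0.0171). Without DCKO libraries 1 and 2 together this was -0.21 and no longer passed (adjusted p = 0.147; range over 21 alternatives 0.00108 to 0.147). In DN3b it fell 1.40-fold relative to DN3a (-0.48 ± 0.119, adjusted p = 0.00460). DCKO and DN3b differed by 0.11 in log2 (95% interval -0.14 to 0.37, adjusted p = 0.533).

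The E-type cyclins had the largest fitted changes of the 9 genes in each of the 3 comparisons, although Ccne1 was not called between DCKO and DN3b. Ccne1, cyclin E1, lies at chr7:38097984-38107534 on the minus strand (ENSMUSG00000002068). Of the 9 genes, it alone has a span that overlaps no other annotated gene. It measured 98.5, 102.6, 77.3 and 71.8 CPM in DCKO, 34.6, 40.8, 58.2 and 67.2 CPM in DN3b, and 3.81, 5.37, 9.48 and 11.7 CPM in DN3a. None of the 3 groups overlapped, with DCKO highest and DN3a lowest, although DCKO library 4 and DN3b library 4 were close. Ccne1 averaged 87.5 ± 15.3 CPM in DCKO, 50.2 ± 15.1 CPM in DN3b and 7.58 ± 3.62 CPM in DN3a (SD, n = 4 each). It rose 11.6-fold in DCKO (log2 3.53 ± 0.332, adjusted p = 5.51e-06) and 6.64-fold in DN3b (2.73 ± 0.322, adjusted p = 5.11e-05) relative to DN3a. Between DCKO and DN3b the log2 difference was 0.80 ± 0.299 (95% interval 0.16 to 1.45), which missed the threshold (adjusted p = 0.0782). This call depended on the method: it passed with DESeq2 (0.81, adjusted p = 0.0376), with limma-voom (0.85, adjusted p = 0.0249), with the 8 libraries of the pair alone (0.79, adjusted p = 0.0285) and without DN3a library 1 (0.80, adjusted p = 0.0386), 4 of 21 alternatives whose adjusted p ran from 0.0249 to 0.439. In the authors' deposited table it stands at 0.74 with an adjusted p of 0.00401.

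Ccne2, cyclin E2, a second cyclin E that also binds Cdk2, lies at chr4:11191351-11204779 on the plus strand (ENSMUSG00000028212). Its level was 488, 422, 425 and 307 CPM in DCKO, 117, 146, 156 and 222 CPM in DN3b, and 23.6, 38.4, 42.4 and 67.4 CPM in DN3a. The 3 groups did not overlap: the lowest DCKO library exceeded the highest DN3b library, and the lowest DN3b library the highest DN3a library. Ccne2 averaged 410.3 ± 75.4 CPM in DCKO, 160.2 ± 44.3 CPM in DN3b and 42.9 ± 18.2 CPM in DN3a (SD, n = 4 each). It rose 9.56-fold in DCKO relative to DN3a (log2 3.26 ± 0.295, adjusted p = 4.64e-06) and 3.73-fold in DN3b relative to DN3a (1.90 ± 0.281, adjusted p = 0.000172). It also rose 2.56-fold in DCKO relative to DN3b (1.36 ± 0.275, adjusted p = 0.00479). Without DCKO libraries 1 and 2 together the last was 1.19 and missed the threshold (adjusted p = 0.0633; range over 21 alternatives 2.3e-05 to 0.0633). The authors' deposited table gives 1.26 for this pair, with an adjusted p of 2.02e-08.

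Cdk2, the kinase that cyclin E activates, lies at chr10:128697939-128705031 on the minus strand (ENSMUSG00000025358). It measured 189.8, 182, 213 and 214 CPM in DCKO, 118, 149, 173 and 168 CPM in DN3b, and 58.4, 62.1, 77.4 and 82.1 CPM in DN3a. The groups did not overlap, in the order DCKO, DN3b, DN3a from high to low. The means were 199.7 ± 16.01 CPM in DCKO, 152 ± 24.97 CPM in DN3b and 69.98 ± 11.5 CPM in DN3a (SD, n = 4 each). Cdk2 rose 2.85-fold in DCKO (log2 1.51 ± 0.142, adjusted p = 5.38e-06) and 2.17-fold in DN3b (1.12 ± 0.140, adjusted p = 6.73e-05) relative to DN3a. Its log2 difference between DCKO and DN3b was 0.39 ± 0.139 (95% interval 0.09 to 0.69) and missed the threshold (adjusted p = 0.0655), though it passed with DESeq2 (0.40, adjusted p = 0.0407; range over 21 alternatives 0.0407 to 0.168).

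Cdc25a, the phosphatase that activates cyclin E-Cdk2 by removing inhibitory phosphates, lies at chr9:109875579-109893895 on the plus strand (ENSMUSG00000032477). Its libraries gave 227, 221, 216 and 221 CPM in DCKO, 123, 143, 155 and 176 CPM in DN3b, and 73.4, 72.1, 76.8 and 95.4 CPM in DN3a. The groups did not overlap, and the DCKO libraries were the closest together of the 3 groups. Cdc25a averaged 221 ± 4.45 CPM in DCKO, 149.7 ± 22.3 CPM in DN3b and 79.4 ± 10.9 CPM in DN3a (SD, n = 4 each). It rose 2.78-fold in DCKO (log2 1.48 ± 0.120, adjusted p = 2.93e-06) and 1.88-fold in DN3b (0.91 ± 0.118, adjusted p = 8.02e-05) relative to DN3a. In DCKO it also rose 1.48-fold relative to DN3b (0.56 ± 0.118, adjusted p = 0.00568). Without DCKO libraries 1 and 2 together that difference was 0.54 and missed the threshold (adjusted p = 0.0602; range over 21 alternatives 0.000262 to 0.0602). The authors' deposited table gives 0.55, with an adjusted p of 0.000564.

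Ccne1 and Cdc25a are known E2F targets and, like Cdk2, rose in DCKO and in DN3b relative to DN3a, so the promoter windows of these genes are shown (RefSeq, GRCm38.p6, 250 bases before to 50 bases after the annotated start, in the direction of transcription). They were searched on both strands for 4 forms of the E2F motif, TTTCGCGC, TTTGGCGC, TTTCCCGC and TTTGCCGC, which do not overlap one another in these windows. Capitals mark the matches. The windows are Cdc25a at chr9:109875329-109875628 on the plus strand, Cdk2 at chr10:128705002-128705301 on the minus strand and Ccne1 at chr7:38107441-38107740 on the minus strand.
Cdc25a: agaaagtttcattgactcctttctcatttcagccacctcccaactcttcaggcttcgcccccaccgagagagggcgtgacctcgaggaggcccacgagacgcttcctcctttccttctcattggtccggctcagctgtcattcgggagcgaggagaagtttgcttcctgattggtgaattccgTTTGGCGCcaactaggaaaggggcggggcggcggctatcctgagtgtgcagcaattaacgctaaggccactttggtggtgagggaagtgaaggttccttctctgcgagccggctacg
Cdk2: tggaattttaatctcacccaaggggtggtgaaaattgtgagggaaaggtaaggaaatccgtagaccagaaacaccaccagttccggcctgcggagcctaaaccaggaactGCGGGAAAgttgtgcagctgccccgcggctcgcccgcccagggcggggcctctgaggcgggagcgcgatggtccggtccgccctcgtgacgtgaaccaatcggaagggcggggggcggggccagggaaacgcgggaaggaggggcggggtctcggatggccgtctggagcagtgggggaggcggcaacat
Ccne1: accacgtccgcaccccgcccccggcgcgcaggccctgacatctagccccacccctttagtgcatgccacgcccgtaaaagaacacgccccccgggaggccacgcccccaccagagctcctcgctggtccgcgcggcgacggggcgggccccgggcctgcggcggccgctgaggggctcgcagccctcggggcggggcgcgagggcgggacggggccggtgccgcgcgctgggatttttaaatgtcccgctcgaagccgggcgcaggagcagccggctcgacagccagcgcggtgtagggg
Cdc25a holds TTTGGCGC starting 67 bases before the start, a motif found in 0.514% of 32851 windows of the same length. Cdk2 holds GCGGGAAA, the reverse complement of TTTCCCGC, starting 140 bases before the start, a motif found in 1.07% of windows. Any of the 4 forms was found in 2.26% of windows. These shares are over all windows of this length, without limit to tested genes and without a match on base composition. The windows of Cdc25a, Cdk2 and Ccne1 were 56.7%, 64.7% and 76% G and C. Whether the 9 genes hold more matches than like windows was not tested. Windows were matched for 6 of the 9 genes, all but Ccnd1, Ccnd2 and Ccne2, and those of Ccne1, Ccnd3, Cdk4 and Cdk6 held none of the 4 forms. No match says only that these letters are not in the window searched.

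The proteins encoded by the targeted genes bind AU-rich elements, so the 3′ untranslated regions of the 9 genes (GENCODE M21, GRCm38, 1 transcript per gene) were searched on the transcript strand for the heptamer TATTTAT and for TTATTTATT, a nonamer that contains the heptamer. The heptamer was found in 28.0% of the 11598 untranslated regions of tested genes and the nonamer in 7.33%. The heptamer was present in 4 of the 9 genes, at 5 sites, which are shown with the heptamer in capitals and up to 8 bases on each side.
Ccne2: tagaaattTATTTATttaaactt
Cdk6, first site: atgtatatTATTTATtgctaagc
Cdk6, second site: aatttatgTATTTATtgtctggt
Cdk2: aacaattaTATTTATatttcaag
Ccnd1: cagaagagTATTTATgggaaagg
The Ccne2 site lies at bases 1029 to 1035 of a region of 1577 bases and is part of a nonamer, which 7.95% of the 1824 regions of like length (0.8 to 1.25 times) contain, while 35.8% contain the heptamer. Ccne2 had the largest rise of the 9 genes in DCKO relative to DN3b. The Cdk6 sites lie at bases 7716 to 7722, within a nonamer, and 10043 to 10049 of a region of 10217 bases, a length at which 93.7% of regions hold a heptamer and 49.2% a nonamer. Cdk6 did not pass between DCKO and DN3b. The Cdk2 site is at bases 919 to 925 of 1167, and the Ccnd1 site at bases 1280 to 1286 of 2676. The other 5 genes had no heptamer, among them Cdc25a, which rose in DCKO relative to DN3b, and Ccnd2, with a region of 5173 bases. A match is a description of the sequence and not evidence of binding, and the part of these sites in any change was not tested.

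Ratios taken within a library do not depend on how libraries are scaled. The log2 ratio of Ccnd3 to Ccnd2 counts was 1.01, 0.36, 0.88 and 1.91 in DCKO, 0.76, 0.72, 0.87 and 0.95 in DN3b, and -0.51, -1.06, -0.79 and -1.40 in DN3a. It was above 0 in all libraries of DCKO and DN3b and below 0 in all of DN3a. The mean was higher by 1.98 in DCKO and by 1.77 in DN3b than in DN3a (exact permutation test, two-sided, p = 0.0286 for each, the smallest that 4 against 4 allows, and 0.0429 adjusted over 9 ratio tests). Between DCKO and DN3b it differed by 0.21 (exact permutation p = 0.629). The DCKO libraries spread more widely (SD 0.642) than the DN3b libraries (SD 0.101).

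The kinases of cyclin D showed the opposite order. The log2 ratio of Cdk6 to Cdk4 counts was -0.99, -0.56, -0.27 and -0.58 in DCKO, -0.54, -0.68, -0.72 and -1 in DN3b, and 0.66, 0.93, 0.74 and 0.57 in DN3a. It was below 0 in all libraries of DCKO and DN3b and above 0 in all of DN3a. The mean was lower in DCKO than in DN3a by 1.33 (log2 difference -1.33), and the difference of DN3b from DN3a was -1.46 (exact permutation p = 0.0286 for each, adjusted 0.0429). DCKO and DN3b differed by 0.14 (exact permutation p = 0.486).

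The E cyclins differed in their balance between DCKO and DN3b. The log2 ratio of Ccne1 to Ccne2 counts was -2.31, -2.04, -2.46 and -2.10 in DCKO, -1.75, -1.84, -1.43 and -1.72 in DN3b, and -2.63, -2.83, -2.16 and -2.53 in DN3a. All DCKO libraries lay below all DN3b libraries, and the DN3a range overlapped that of DCKO. The ratio was lower in DCKO than in DN3b, with a log2 difference of -0.54 (exact permutation p = 0.0286, adjusted 0.0429). In DN3b it was higher than in DN3a by 0.85 (exact permutation p = 0.0286, adjusted 0.0429). These tests take no account of the pairing of DN3b with DN3a libraries by replicate number. Within the 4 pairs each of the 3 ratios differed in the same direction 4 times of 4, with an exact p of 0.125, the smallest that 4 pairs allow. Between DCKO and DN3a the difference of 0.31 missed the threshold (exact permutation p = 0.114, adjusted 0.147).

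**Figure D3:**
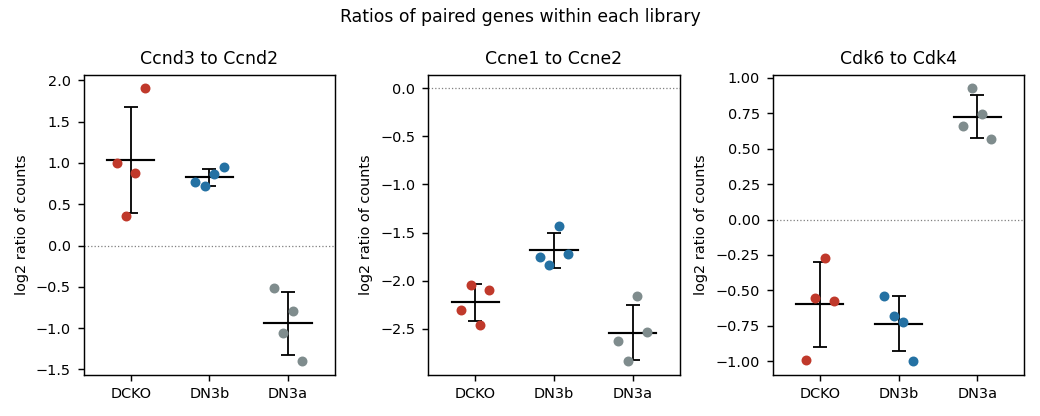
Log2 ratio of counts within each library (vertical axis) for Ccnd3 to Ccnd2, Ccne1 to Ccne2 and Cdk6 to Cdk4, in DCKO, DN3b and DN3a from left to right; points are libraries, the horizontal bar is the mean of 4 and the error bar 1 SD. For the D cyclins and their kinases DCKO and DN3b lie together on one side of 0 and DN3a on the other, and for the E cyclins DCKO (mean -2.23) lies below DN3b (mean -1.69).

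To compare levels between genes, CPM was divided by transcript length in kilobases. On this scale Ccnd3 made up 85.3% ± 5.13 of the D cyclin RNA in DCKO, 84.0% ± 1.06 in DN3b and 60.7% ± 6.29 in DN3a (SD, n = 4 each), and Ccnd1 at most 0.297% in any library. Which D cyclin leads in DN3a rests on the length used: with the length of all exons merged, Ccnd3 made up 67.9%, 65.2% and 35.9% in DCKO, DN3b and DN3a. Cdk4 made up 89.4% ± 1.90 of the Cdk4 and Cdk6 RNA in DCKO, 90.3% ± 1.14 in DN3b and 77.2% ± 1.88 in DN3a. Ccne2 made up 75.6% ± 2.45 of the E cyclin RNA in DCKO, 68.1% ± 2.75 in DN3b and 79.3% ± 3.28 in DN3a. Among the 3 kinases together, Cdk2 took 23.5% ± 1.39 in DCKO, 18.7% ± 2.14 in DN3b and 15.1% ± 1.83 in DN3a, and with merged exons 14.5%, 11.3% and 8.69% in the same groups, the same order at lower values.

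For 7 of the 9 genes an annotated gene on the other strand overlaps the span. Whole gene spans were compared and not exons, so how many counted reads fall in a shared stretch is not known. As no strand setting of the counting is known, reads from such a stretch may not be told apart. The partners are Bysl for Ccnd3, Tspan31 for Cdk4, Pmel for Cdk2, Ints8 for Ccne2, LTO1 for Ccnd1, the antisense genes 9330179D12Rik and Gm43126 for Ccnd2, and Gm42435 and Gm17590 for Cdk6. Cdc25a contains Mir7089 on its own strand.

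The counts of the lists that follow stand against the shares of all genes given above, which in either direction were 60.2% for DCKO against DN3a, 18.9% for DCKO against DN3b and 52.6% for DN3b against DN3a. The inhibitors of these kinases and the pocket proteins they phosphorylate moved in both directions. Of 10 listed genes 8 were tested, and in DCKO relative to DN3a 6 rose and 1 fell (median log2 0.91), among them Cdkn2c, the Cdk4 and Cdk6 inhibitor p18 (1.51 ± 0.148, adjusted p = 6.86e-06), and Rb1, the retinoblastoma protein (0.89 ± 0.162, adjusted p = 0.000462), while Rbl2 fell by 0.49 (adjusted p = 0.000501). In DN3b relative to DN3a 3 rose and 3 fell (median 0.18), Cdkn1a among those that fell (-1.94 ± 0.293, 3.84-fold, adjusted p = 0.000199). In DCKO relative to DN3a Cdkn1a rose 2.47-fold (1.30 ± 0.282, adjusted p = 0.00151). In DCKO relative to DN3b 3 rose and 0 fell (median 0.29). Those were Cdkn1a, the Cdk2 inhibitor p21 (3.24 ± 0.305, 9.46-fold, adjusted p = 2.42e-05), Cdkn2d, the Cdk4 and Cdk6 inhibitor p19 (0.70 ± 0.176, adjusted p = 0.0154), and Rb1 (0.51 ± 0.161, adjusted p = 0.0437). In the same comparison the E cyclins and Cdc25a stood at 0.80, 1.36 and 0.56. At an unadjusted p under 0.05 the count in DCKO relative to DN3b was 4 higher and 0 lower, with DESeq2 4 and 0, with limma-voom 3 and 0, and with upper quartile scaling 2 and 0. Cdkn1a passed in 21 of 21 alternatives. Cdkn2d lost the call without DN3b library 2 and with the replicate block (adjusted p 0.0012 to 0.0746 over the alternatives). Rb1 lost it in 12 of 21, which include leaving out DCKO library 1, 2 or 3, DN3b library 1, 2 or 3, or DN3a library 2 or 3 (0.0214 to 0.201).

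Of 10 E2F and DP factors, among which E2f6, E2f7 and E2f8 are not bound by the retinoblastoma family, 7 rose and 1 fell in DCKO relative to DN3a (median log2 1.09). Among them E2f2, an activator (2.24 ± 0.143, adjusted p = 9.64e-07), E2f1 (1.71 ± 0.187, adjusted p = 1.24e-05) and the partner Tfdp1 (1.17 ± 0.130, adjusted p = 1.36e-05) had the smallest adjusted p. In DN3b relative to DN3a the count was the same, 7 higher and 1 lower (median 0.94). In DCKO relative to DN3b 2 rose and 0 fell (median 0.29): E2f2 (0.94 ± 0.137, adjusted p = 0.000628) and E2f7, a repressor (0.83 ± 0.268, adjusted p = 0.0462). The 2 of 10 is close to the 18.9% of all genes. In that comparison 3 were higher and 1 lower at an unadjusted p under 0.05, 3 and 1 with DESeq2, 3 and 0 with limma-voom, and 1 and 1 with upper quartile scaling. E2f2 passed in 21 of 21 alternatives. E2f7 lost the call in 9 of 21, which include leaving out DCKO library 1, 2 or 3, DN3b library 1, 2 or 4, or DN3a library 3 (adjusted p 0.0128 to 0.158).

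Of 12 genes of S phase entry that E2F is known to drive (the Mcm2 to Mcm7 helicase subunits, Cdc6, Cdt1, Pcna, Rrm2, Tyms and Mybl2), 12 rose in DCKO relative to DN3a (median log2 1.48) and 12 in DN3b relative to DN3a (median 1.64). The summed level was 6270 to 6750 CPM in DCKO, 4750 to 7240 in DN3b and 1990 to 2940 in DN3a. In DCKO relative to DN3b 1 gene passed, Cdc6, which loads the helicase (0.74 ± 0.236, adjusted p = 0.0447), with a list median of 0.032. At an unadjusted p under 0.05 the count was 2 higher and 1 lower, with DESeq2 2 and 0, with limma-voom 1 and 0, and with upper quartile scaling 0 and 0 (median -0.0465). The Cdc6 call was lost in 11 of 21 alternatives, which include leaving out any DCKO library, DN3b library 1, 2 or 3, or DN3a library 3 (adjusted p 0.0148 to 0.222). The values of the 12 genes ran from -0.41 ± 0.181 for Cdt1 (adjusted p = 0.129) to 0.90 ± 0.331 for Rrm2 (adjusted p = 0.0761). Neither passed, though the Rrm2 value was above that of Cdc6. In the same comparison Ccne2 and Cdc25a rose by 1.36 and 0.56, the latter less than the Rrm2 value.

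Of 14 later cyclins, kinases and their regulators 11 rose in DCKO relative to DN3a (median 1.47; with upper quartile scaling 9 rose and 1 fell), among them Cdk1, the mitotic kinase (2.6 ± 0.333, adjusted p = 3.55e-05), and the kinase subunit Cks1b (2.23 ± 0.226, adjusted p = 8.24e-06). In DN3b relative to DN3a 11 rose and 1 fell (median 1.75). In DCKO relative to DN3b 0 rose and 1 fell, Cdc25b, a phosphatase of mitotic entry (-0.85 ± 0.277, adjusted p = 0.0483), opposite in sign to Cdc25a. At an unadjusted p under 0.05 the count was 1 higher and 1 lower, with DESeq2 0 and 1, and with limma-voom 0 and 0. The Cdc25b call was lost in 10 of 21 alternatives, which include leaving out DCKO library 1, 2 or 3, DN3b library 2, 3 or 4, or DN3a library 2 or 3 (adjusted p 0.0153 to 0.339).

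**Figure D4:**
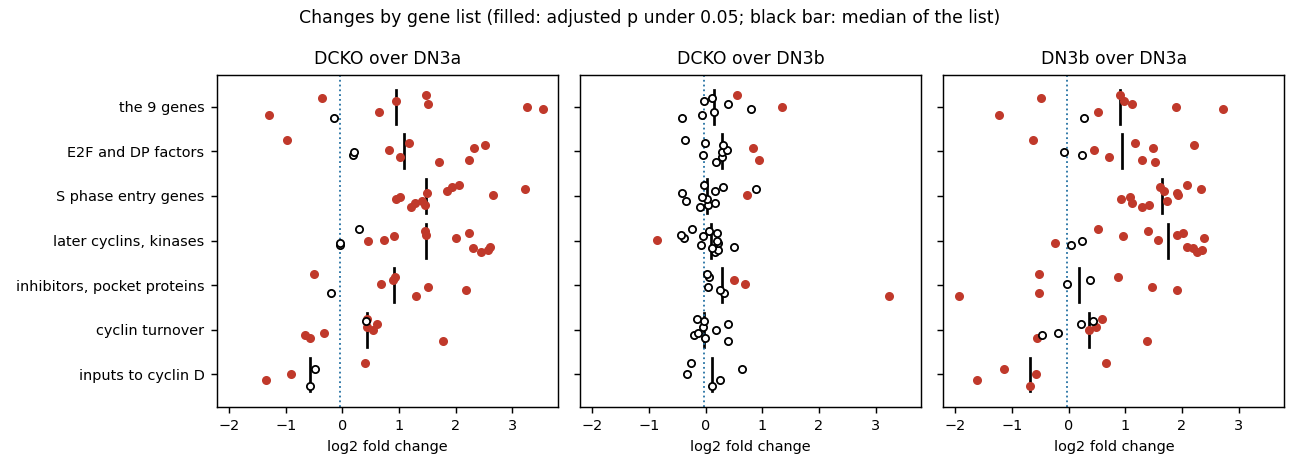
Log2 fold change (horizontal axis) of each gene in the 9-gene set and in 6 lists of the same pathway, for DCKO over DN3a, DCKO over DN3b and DN3b over DN3a; filled points passed an adjusted p of 0.05, black bars are list medians and the dotted line is the median of all genes tested. The S phase entry list has 12 of 12 points filled to the right in DCKO over DN3a and in DN3b over DN3a, and 1 of 12 in DCKO over DN3b, where the point farthest to the right is Cdkn1a (3.24).

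Turnover of the cyclins runs through ubiquitin ligases. Of 9 tested genes of this kind 5 rose and 3 fell in DCKO relative to DN3a (median log2 0.43; 3 and 3 with upper quartile scaling). Skp2, which marks p27 and free cyclin E, rose (1.78 ± 0.195, adjusted p = 1.28e-05), and Fbxw7, which marks phosphorylated cyclin E, fell by 0.57 (adjusted p = 0.000262). In DN3b relative to DN3a 4 rose and 1 fell (median 0.36; 3 and 3 with upper quartile scaling), close to the share of all genes. In DCKO relative to DN3b 0 of 9 passed with edgeR; 1 was higher at an unadjusted p under 0.05 and with DESeq2, and 0 with limma-voom. Upstream of cyclin D, Il7r, the interleukin 7 receptor (-0.91 ± 0.123, adjusted p = 5.21e-05), and Notch3 (-1.36 ± 0.506, adjusted p = 0.0337) fell and Myc rose (0.40 ± 0.140, adjusted p = 0.0248) among 5 genes in DCKO relative to DN3a. The 3 of 5 is close to the 60.2% of all genes. With upper quartile scaling 0 of the 5 rose and 3 fell. In DN3b relative to DN3a 1 of the 5 rose and 4 fell, and in DCKO relative to DN3b 0 of 5 passed with edgeR, DESeq2 or limma-voom, with 1 lower at an unadjusted p under 0.05 and 1 lower with upper quartile scaling. Relative to DN3a, the Myc call in DCKO was lost in 8 of 21 alternatives, which include leaving out DCKO library 2 or 4 or DN3a library 2 or 3 (adjusted p 0.00307 to 0.263). The Notch3 call in DCKO was lost in 5 of 21 (leaving out DCKO library 1, 3 or 4, DCKO libraries 1 and 2 together, or DN3a library 1), with adjusted p from 0.00238 to 0.124 and a log2 difference of -0.90 to -1.58.

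Across the 12 libraries, the genes most like each member by Pearson correlation of log2 CPM were taken from about 8570 genes whose log2 CPM averaged at least 3. The values describe these 12 libraries and include the differences between the 3 groups. Ccnd2 was most like Inpp4b (0.979), Phc3 (0.975) and Tmcc1 (0.974), and Cdk6 most like Ston2 (0.971), Crebbp (0.970) and Aak1 (0.969). Ccnd3 was most like Slc35b2 (0.929), Lrp5 (0.926) and Jade2 (0.919). For Ccne1 the nearest were Spdl1 (0.994), Sod1 (0.994) and Nutf2 (0.993), and for Ccne2 they were Ak6 (0.997), Tex30 (0.996) and Rpa3 (0.993). Cdk2 was nearest to Kmt5a (0.993), Dna2 (0.993) and Nup107 (0.992), Cdk4 to Dctpp1 (0.998), U2af2 (0.996) and Pfdn6 (0.996), and Cdc25a to Tpm3 (0.997), Mtbp (0.995) and Hnrnpab (0.994). Ccnd1, with its low counts, had the lowest values, for Arl16 (0.710), Uros (0.709) and Pcgf1 (0.703).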

How the data were processed

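Total RNA of 12 libraries was measured, 4 in each of DCKO, DN3b and DN3a, made per the labels' protocols with the RNeasy Micro kit and the TruSeq Stranded Total RNA kit with ribosomal RNA removal. Per the submitters' processing notes the build was GRCm38 and the tools were DESeq2 1.6.3, HTSeq, TopHat2 2.0.12 and Trim Galore; which tool did what, with which strand setting and annotation release, is not given in the sources used here. The authors deposited whole-number counts per Ensembl gene, from which every value was computed unless the authors' table is named. A second table the authors deposited holds a signal per gene, the counts divided by 1 factor per library, and was used only to check that ratio, which was constant within 1.19e-09. The authors' deposited DESeq2 tables hold log2 fold changes, p-values (raw and adjusted) and a Wald score, and were used only where named.

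Symbols came from GENCODE M21 for 42548 genes; 1081 had none. Low genes were removed by filterByExpr of edgeR (count minimum 10). R 4.3.3, edgeR 4.0.16, limma 3.58.1 and DESeq2 1.42.0 were used. The edgeR quasi-likelihood fit took all 12 libraries, with TMM scaling and group as the only term (9 residual degrees of freedom), tested two-sided with Benjamini-Hochberg adjustment over 13944 genes and 0.05 as the threshold; all adjusted p-values of genes are from this fit unless named. A standard error is the log2 fold change over the square root of F, and folds are its antilog. Ratio tests added 0.5 to each count and used exact permutation over libraries. The fit was tested on simulated data. Counting error is small at this depth except for Ccnd1, reads carry no molecular identifiers, and 0 counts are read as up to 3. No pair of replicates was alike within counting noise.

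The labels do not say what a replicate number marks. The data pair DN3b with DN3a: deviations of libraries with the same number correlated at 0.354 to 0.564, each best with its own number, so a fit with the block was made too. The members and lists were chosen with earlier results of these data known, and 1 gene of the S phase entry list is not reported here and was left out of its counts. Named genes are the 9 members and up to 3 genes per list and comparison with the smallest adjusted p. The 3 genes most like each member are named too. ENSMUSG00000045999, Lars2, Gm42418, Malat1 and the marker genes named singly were chosen after their values were seen. Alternatives were RLE and upper quartile scaling, DESeq2, limma-voom, no filter and a stricter filter, the 8 libraries of a pair alone, the block, and leaving out libraries.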

Additional observations from a re-analysis of the deposited data

How the results depend on the processing

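The fits used 12 libraries, 4 a group, so small differences between DCKO and DN3b have wide intervals, and Ccnd1, at 67 to 114 counts a group, varied widely between libraries (60, 47, 7 and 0 counts in DN3b). Between DCKO and DN3a, 8 called members kept direction, and 6 of them (Ccnd2, Ccne1, Ccne2, Cdk2, Cdk4 and Cdc25a) passed in 21 of 21 alternatives; the exceptions, Ccnd3 and Cdk6, stand beside their results. Between DN3b and DN3a, 7 called members passed in 21 of 21, all but Ccnd3. Replicate numbers did not pair DCKO with DN3b (r -0.257 to 0.0691) or with DN3a (-0.192 to 0.119). With the replicate block, on the 8 libraries of a pair, the number of genes called was 1062 for DCKO against DN3b, 9233 for DN3b against DN3a and 7648 for DCKO against DN3a, against 2169, 7177 and 8189 on the same 8 libraries without it (1033, 7160 and 7527 called in both, in the same direction). Between DCKO and DN3b the block ended the calls that the 8 libraries gave for Ccne1 (adjusted p 0.0285 without and 0.0889 with it), Cdc6, Cdkn2d and Rb1; it changed no other call of a member. Within pairs, a test chosen after seeing the data, the DN3b minus DN3a differences of 1.77 (Ccnd3 to Ccnd2), 0.85 (Ccne1 to Ccne2) and -1.46 (Cdk6 to Cdk4) had p = 0.125 each, which cannot pass (exact test within 4 pairs). Genes called between DCKO and DN3b were 950 without DCKO libraries 1 and 2 together, and 1601 to 3249 leaving out 1 library at a time (1730 without DCKO library 1, 1654 without DCKO library 2, 1670 without DN3b library 2, 1601 without DN3b library 3); the other comparisons gave 7622 to 8699 (DCKO against DN3a) and 6253 to 7790 (DN3b against DN3a). The cause was not tested. Upper quartile scaling shifted the median of all genes by -0.223 (DCKO against DN3a), -0.0791 (DCKO against DN3b) and -0.145 (DN3b against DN3a), and the split of calls was 3119 higher and 5528 lower, 1051 and 1644, and 3021 and 4536, against 4275 and 4116, 1438 and 1197, and 3815 and 3519 with TMM. Directions that turned belonged to differences that were never called. Ccnd1 was 0.61 with limma-voom and 0.0719 with the block between DCKO and DN3b, and -0.83 and -0.12 between DN3b and DN3a. Leaving out 1 library, it ranged from -0.44 to 0.12 between DCKO and DN3a (0.12, 0.0762 and 0.00544 without DCKO library 3, DN3a library 2 and DN3a library 4), from -0.83 to 0.19 between DCKO and DN3b (0.19 without DN3b library 1) and from -0.34 to 0.64 between DN3b and DN3a (-0.34, -0.0949 and -0.0112 without DN3b library 1, DN3b library 2 and DN3a library 1). Between DCKO and DN3b, Ccnd2 then ranged from -0.23 to 0.0556 and Ccnd3 from -0.0359 to 0.22, both ends with the changed sign being without DCKO library 4, where their ratio was -0.0769. Ccnd1 did not pass the stricter filter. Leaving out 1 library of a pair leaves a ratio test with a smallest p of 0.0571. The Ccnd3 to Ccnd2 ratio then ranged from 1.69 to 2.20 (DCKO against DN3a), -0.0769 to 0.44 (DCKO against DN3b) and 1.61 to 1.91 (DN3b against DN3a). In the same order the Ccne1 to Ccne2 ratio ranged from 0.21 to 0.44, -0.60 to -0.45 and 0.75 to 0.98, and the Cdk6 to Cdk4 ratio from -1.43 to -1.19, 0.0268 to 0.27 and -1.53 to -1.37.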
